A study of Mus musculus with 10 samples.

Results

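Mfsd2a, Rgs16, Pdk4, Txnip, Plk3 and Fgf21 are liver genes known to answer fasting and feeding, and all 6 were found among the 19935 genes measured in livers of 5 wild-type (WT) mice and 5 mice lacking nucleomethylin (NML-KO), each 12 weeks of age. Nucleomethylin, encoded by Rrp8, works in the nucleolus, where it helps to keep ribosomal RNA genes silent. Each liver gave total RNA for 1 whole-transcript microarray, and values are log2 intensities, so that a difference of 1 is a 2-fold difference. The knockout allele, the strain, the sex, the food given before dissection and the hour of dissection are details not given in the sources used here.

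The 6 genes were chosen by name with earlier results of these arrays known, among them the difference between genotypes and the difference between livers with much and with little Dbp transcript. Their values in both comparisons are therefore a description. The p-values below come from the fit over all genes and are not independent evidence for these 6. Dbp encodes a transcription factor driven directly by the circadian clock. A log2 Dbp above 8 defined 5 Dbp-high livers, WT 1, WT 2 and NML-KO 1 to 3, with Dbp from 9.68 to 10.2. The other 5, WT 3 to 5 and NML-KO 4 and 5, were Dbp-low, with Dbp from 6.20 to 6.60. These sets come from the measured values and are not a label of the study. Because 3 of 5 NML-KO but 2 of 5 WT livers were Dbp-high, a genotype difference over all livers carries part of the set difference. For each of the 6 genes it is also given with the set in the model and within each set.

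In the fasted liver, glucagon, falling insulin and fatty acids released from fat tissue turn on genes of fatty acid oxidation, ketone formation and glucose production, many of them through the nuclear receptor PPARA. After a meal, insulin and glucose turn on glycolysis and lipid synthesis through SREBP1 and ChREBP. Since mice eat mostly in the dark, the circadian clock and the feeding rhythm run together in the liver, and many of these genes cycle over the day. Mfsd2a encodes a membrane transporter of lysophosphatidylcholine that rises with fasting. Rgs16 encodes a protein that shortens signalling by G proteins. Pdk4 encodes a kinase that shuts off pyruvate dehydrogenase and so spares glucose. Txnip encodes an arrestin-like protein that binds thioredoxin, restrains glucose uptake and is induced by glucose. Plk3 encodes a stress-responsive kinase of the polo-like family, and Fgf21 a hormone that the liver secretes in fasting and in amino acid shortage.

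The bases before the start sites are shown for 3 genes with wide differences between the sets and for Fgf21, which had the single E-box among the 6 and a nearly flat signal. All 6 matched the RefSeq promoter table (GRCm38.p6), and each line gives the 250 bases before the start, 5′ to 3′ on the gene's strand. Capitals mark exact matches, on either strand, to a motif searched. The windows are chr4:122961189-122961438 (minus strand) for Mfsd2a, chr1:153740103-153740352 (plus strand) for Rgs16, chr6:5496279-5496528 (minus strand) for Pdk4 and chr7:45615491-45615740 (minus strand) for Fgf21.
Mfsd2a: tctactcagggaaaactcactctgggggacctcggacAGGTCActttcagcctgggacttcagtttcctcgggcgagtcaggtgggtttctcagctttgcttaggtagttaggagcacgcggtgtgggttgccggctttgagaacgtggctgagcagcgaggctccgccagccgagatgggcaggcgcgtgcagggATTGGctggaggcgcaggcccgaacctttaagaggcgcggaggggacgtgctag
Rgs16: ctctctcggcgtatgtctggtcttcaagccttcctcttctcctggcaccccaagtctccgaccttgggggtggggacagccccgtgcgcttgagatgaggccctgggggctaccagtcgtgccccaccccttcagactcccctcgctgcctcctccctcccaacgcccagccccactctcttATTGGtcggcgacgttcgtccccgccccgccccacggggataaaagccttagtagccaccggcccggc
Pdk4: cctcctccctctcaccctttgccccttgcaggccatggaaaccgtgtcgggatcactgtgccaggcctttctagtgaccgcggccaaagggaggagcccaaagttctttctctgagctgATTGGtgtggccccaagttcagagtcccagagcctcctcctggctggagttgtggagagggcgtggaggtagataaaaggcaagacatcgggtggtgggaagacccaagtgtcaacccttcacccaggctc
Fgf21: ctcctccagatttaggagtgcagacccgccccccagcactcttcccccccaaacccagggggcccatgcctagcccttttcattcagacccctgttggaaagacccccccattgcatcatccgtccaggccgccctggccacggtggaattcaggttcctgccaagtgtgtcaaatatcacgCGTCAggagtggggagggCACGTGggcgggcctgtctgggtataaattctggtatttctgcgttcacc

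The motifs were searched in windows of 300 bases, 250 before and 50 after each start, of which the table holds 32851. The E-box CACGTG, which the clock activators CLOCK and BMAL1 bind, lay 50 bases before the start of Fgf21 and in 7.15% of all windows. The D-box TTATGNAA, bound by DBP, lay in 0 of the 6 windows and in 3.38% of all windows. AGGTCA, the core bound by many nuclear receptors, lay 213 bases before the start of Mfsd2a and in 16.3% of all windows, and its direct repeat DR1, the element PPARA binds, in 0 of 6 and 0.0396%. The cyclic AMP response element TGACGTCA lay in 0 of 6 and 1.79%, and its shorter core TGACG in Fgf21 and Plk3 and in 20.8%. The CCAAT box lay in 4 of the 6, Mfsd2a, Rgs16, Pdk4 and Txnip, and in 37.4% of all windows. The matches of TGACG inside TGACGTCA and of AGGTCA inside DR1 overlap by construction. A match here is a run of letters in a short window, and factor binding was not measured.

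Between Dbp-high and Dbp-low livers, Mfsd2a and Rgs16 were higher and Pdk4 lower in the Dbp-high livers, each by over 3-fold, while Fgf21 was nearly flat. Mfsd2a and Rgs16 separated the sets with no overlap, as 2 of 6 genes. Of all genes, 5.04% lay above with no overlap and 7.12% below, and 0.316% and 0.602% did so by over 2-fold. All 6 genes were read by 1 probe set each. The differences below have genotype in the model and no test, since the genes were chosen with this contrast known.

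**Figure D1:**
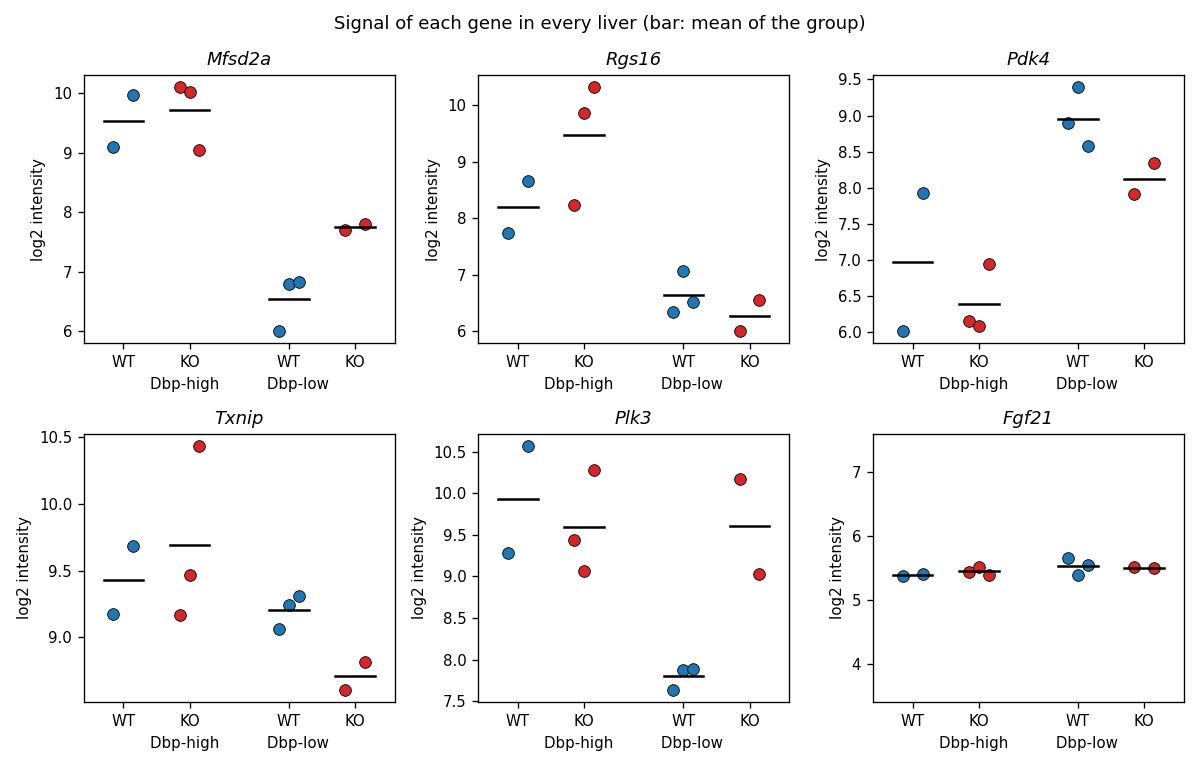
Log2 intensity (vertical axis) of each gene in every liver, by Dbp set and genotype; points are livers, with WT in blue and NML-KO (KO) in red, and bars are group means. Mfsd2a and Rgs16 separate the sets, and in Dbp-low livers Plk3 lies between 9.03 and 10.17 in NML-KO and between 7.63 and 7.89 in WT.

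Mfsd2a, the lysophosphatidylcholine transporter, gave log2 values of 9.10 and 9.97 in the Dbp-high WT livers and 10.10, 10.02 and 9.04 in the Dbp-high NML-KO livers. In Dbp-low livers it gave 5.997, 6.79 and 6.82 in WT 3 to 5 and 7.69 and 7.80 in NML-KO 4 and 5. The lowest Dbp-high liver thus stood 1.25 above the highest Dbp-low liver. The set difference was 2.49 (5.60-fold), and 16 of 19935 genes had a wider one. It was 3.00 among WT and 1.98 among NML-KO livers.

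Rgs16, the brake on G protein signalling, gave 7.74 and 8.66 in the Dbp-high WT livers and 8.23, 9.87 and 10.32 in NML-KO 1 to 3. In Dbp-low livers it gave 6.34, 7.06 and 6.52 in WT 3 to 5 and 6.0005 and 6.56 in NML-KO 4 and 5. NML-KO 2 and NML-KO 3 stood above all other livers, and the sets were 0.68 apart. The set difference was 2.38 (5.20-fold, with 22 genes wider), at 1.56 among WT and 3.20 among NML-KO livers.

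Pdk4, the kinase that inactivates pyruvate dehydrogenase, ran the other way. Its log2 values were 6.01 and 7.92 in the Dbp-high WT livers and 6.15, 6.08 and 6.94 in the Dbp-high NML-KO livers. They were 8.89, 9.40 and 8.58 in WT 3 to 5 and 7.91 and 8.34 in NML-KO 4 and 5. The set difference was -1.86 (3.64-fold, with 43 genes wider), -1.99 among WT and -1.74 among NML-KO livers. WT 2 was the only Dbp-high liver to reach the Dbp-low range, by 0.014 above NML-KO 4. Without WT 2 the Dbp-high livers ended at 6.94 and the sets no longer overlapped. WT 2 was also the liver with the highest summed adipocyte markers, at 8.78 against 7.15 to 7.50 in the others (log2 of the summed intensity of 4 of 5 markers), and their part in its Pdk4 value was not tested.

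Plk3, the stress-responsive kinase, was high in all Dbp-high livers, at 9.29 and 10.57 in WT 1 and WT 2 and 9.44, 9.06 and 10.29 in NML-KO 1 to 3. The Dbp-low livers divided by genotype, with 7.63, 7.87 and 7.89 in WT 3 to 5 but 10.17 and 9.03 in NML-KO 4 and NML-KO 5. Over both genotypes the set difference was 1.06 (2.09-fold), but it was 2.13 (4.38-fold) among WT livers and -0.0050 among NML-KO livers. Without NML-KO 4 the lowest Dbp-high value, 9.06, stood just above the highest Dbp-low value, 9.03. Plk3 and Pdk4 then joined the genes that separated the sets, and the count was 4 of 6. Leaving out a liver can only narrow a range, so such a count cannot fall. The share of all genes in that run was not taken, and nothing is read from the rise. The Plk3 set difference was 1.53 without NML-KO 4 but 0.57 without WT 2.

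Txnip, the glucose-induced arrestin, varied less. It gave 9.17 and 9.69 in the Dbp-high WT livers, 9.16, 9.47 and 10.43 in NML-KO 1 to 3, 9.06, 9.24 and 9.31 in WT 3 to 5 and 8.61 and 8.82 in NML-KO 4 and 5. The sets overlapped, with a difference of 0.60 (1.52-fold), 0.23 among WT and 0.98 among NML-KO livers. NML-KO 3 stood apart at the top and both Dbp-low NML-KO livers lay at the bottom.

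Fgf21, the fasting hormone, gave values from 5.38 to 5.65 in WT and from 5.39 to 5.52 in NML-KO livers. Its whole range of 0.27 was narrower than the median range over all genes, 0.49, and 16205 genes had a wider one. The set difference was -0.095. The deposited values hold no detection call, so whether this probe set stood above background was not tested.

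Over all livers, no gene of the 6 differed between genotypes beyond the spread of the livers. By limma with Benjamini-Hochberg adjustment over all genes, 0 of 6 had an adjusted p below 0.05, against 0% of all 19935 genes, and each of the 6 had an adjusted p of 0.999. At an unadjusted p below 0.05 the counts were 0 of 6 and 2.7% of all genes. For 0 of the 6 were the genotypes free of overlap, against 0.406% of all genes. The median difference of the 6 was 0.47, beside -0.0065 over all genes.

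Mfsd2a had a mean of 7.73 ± 1.70 (SD, n = 5) in WT and 8.93 ± 1.16 (SD, n = 5) in NML-KO livers, a difference of 1.20 (SE 0.81). Pdk4 averaged 8.16 ± 1.32 (SD, n = 5) in WT and 7.08 ± 1.02 (SD, n = 5) in NML-KO livers, a difference of -1.08 (SE 0.66). Plk3 stood at 8.65 ± 1.26 (SD, n = 5) and 9.60 ± 0.60 (SD, n = 5), a difference of 0.95 (SE 0.55). These are fold differences of 2.29, 2.11 and 1.93, and their 95% intervals from limma all held 0, from -0.61 to 3.00, from -2.54 to 0.38 and from -0.27 to 2.17. For Rgs16 the means were 7.27 ± 0.95 and 8.20 ± 1.93 (SD, n = 5 each), a difference of 0.93 (SE 0.85). Txnip and Fgf21 had differences of 0.0044 (SE 0.30) and -0.0041 (SE 0.064). The interval of Txnip, from -0.66 to 0.67, was wide beside that of Fgf21, from -0.15 to 0.14.

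**Figure D2:**
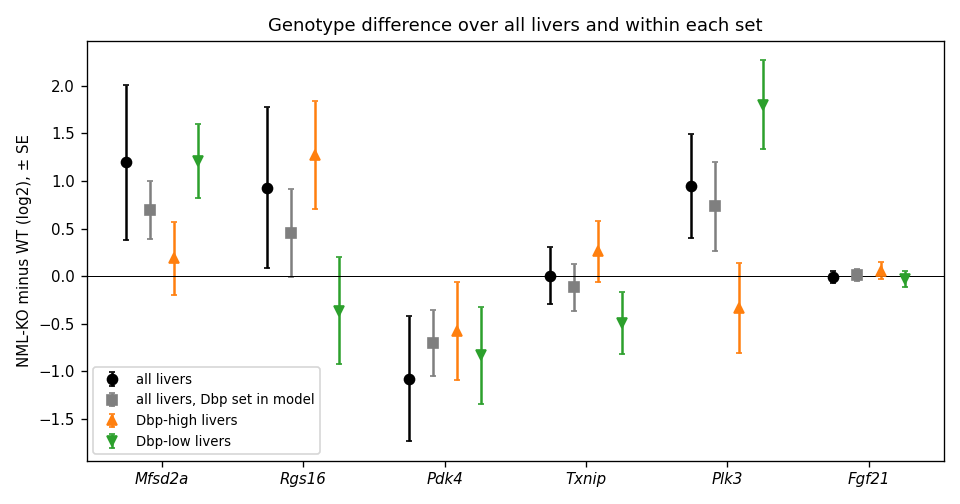
NML-KO minus WT difference on the log2 scale (vertical axis) with its standard error from limma, for each gene over all livers, with the Dbp set in the model, and within each set. The Plk3 difference is 1.80 in Dbp-low and -0.33 in Dbp-high livers, and the Fgf21 differences lie near 0.

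With the Dbp set in the model the differences of Mfsd2a, Rgs16, Pdk4 and Plk3 were all nearer to 0, at 0.70 (SE 0.30), 0.45 (SE 0.46), -0.70 (SE 0.35) and 0.74 (SE 0.47). Txnip came to -0.12 (SE 0.25) and Fgf21 to 0.015 (SE 0.060). In this limma fit 0 of 6 passed an adjusted p of 0.05, against 0% of all genes, with adjusted p from 0.992 to 0.998. At an unadjusted p below 0.05 there was 1 of the 6, Mfsd2a, against 4.36% of all genes.

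Within the Dbp-low livers, 3 WT and 2 NML-KO, Mfsd2a and Plk3 lay higher in both NML-KO livers than in any WT liver, and Pdk4 and Txnip lay lower in both. Such a lack of overlap was met by 19% of all genes in these livers, and by 0.161% with a difference of over 2-fold, which held for Mfsd2a and Plk3. Plk3 differed by 1.80 (SE 0.47; 3.49-fold) and Mfsd2a by 1.21 (SE 0.38; 2.31-fold). Pdk4 differed by -0.83 (SE 0.51), Txnip by -0.49 (SE 0.32), Rgs16 by -0.36 (SE 0.56) and Fgf21 by -0.028 (SE 0.087). In limma on these 5 livers alone, the adjusted p of the 6 genes ran from 0.802 to 0.997. At an unadjusted p below 0.05 this separate fit had 4 of the 6, Plk3, Txnip, Mfsd2a and Pdk4, against 4.73% of all genes. The differences and SEs above come from the model of 4 combinations of set and genotype. By limma in that model the unadjusted p was 0.0042 for Plk3, 0.012 for Mfsd2a, 0.14 for Pdk4 and 0.16 for Txnip. Since the genes were chosen with these arrays known, nothing is read from the count of 4. NML-KO 4, the highest Plk3 value among them, had the highest summed Kupffer cell markers of all livers (11.9, against 10.4 to 11.7 in the others), and their part in the Plk3 difference was not tested.

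In the Dbp-high livers, 2 WT and 3 NML-KO, the genotypes overlapped for all 6 genes. The differences were 1.27 (SE 0.56) for Rgs16, -0.58 (SE 0.51) for Pdk4, -0.33 (SE 0.47) for Plk3, 0.26 (SE 0.32) for Txnip, 0.19 (SE 0.38) for Mfsd2a and 0.058 (SE 0.087) for Fgf21. In limma on these livers alone, 0 of 6 had an unadjusted p below 0.05, against 5.66% of all genes. The genotype difference in Dbp-high minus that in Dbp-low livers was -2.14 (SE 0.67) for Plk3, 1.64 (SE 0.80) for Rgs16 and -1.02 (SE 0.54) for Mfsd2a. By limma the interaction had an adjusted p of 0.739 for Plk3, 0.778 for Rgs16 and 0.790 for Mfsd2a, and 0 of 6 passed, against 0% of all genes. At an unadjusted p below 0.05, Plk3 was 1 of 6, against 6.49% of all genes. By this test none of the 6 genes was shown to differ between the sets in its genotype difference.

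**Figure D3:**
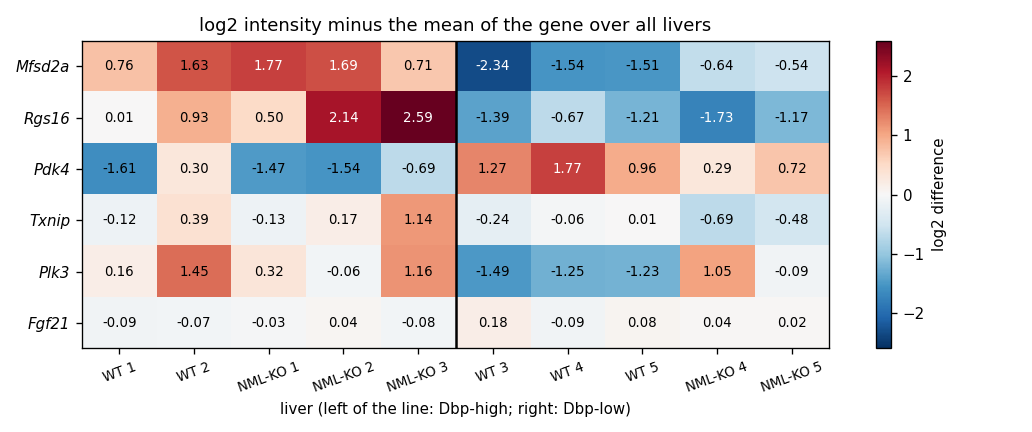
Log2 intensity of each gene (rows) minus its mean over all livers, in every liver (columns), with Dbp-high livers left of the line; red is above and blue below the mean, and the numbers are the differences. Mfsd2a and Rgs16 are at or above their mean in all Dbp-high livers and below it in all Dbp-low livers, while Plk3 is 1.05 above its mean in NML-KO 4.

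The 6 genes did not keep a common order over the livers. NML-KO 3 was highest for Rgs16 and Txnip, 2.59 and 1.14 above the mean of each gene over all livers, and NML-KO 4 was lowest for both, at -1.73 and -0.69 from that mean. WT 3 was lowest for Mfsd2a and Plk3 and highest for Fgf21, at 5.65. WT 2 was highest for Plk3, at 1.45 above its mean, and was second for Txnip. Within the Dbp-high set Mfsd2a was lowest in NML-KO 3, the liver in which Rgs16 was highest, so these genes shared the split into sets but not the order inside it.

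Genes with the nearest profiles were found by the root mean square difference, over the 10 livers, of log2 values centred on each gene's mean, among 17078 genes with specific names. For Mfsd2a, whose own spread was 1.43 on this measure, they were Per1 (0.52), a clock repressor, Alas1 (0.52), the first enzyme of haem synthesis, and Rny3 (0.54), a small noncoding RNA. For Rgs16 (own spread 1.44) they were Lpin1 (0.51), a phosphatidate phosphatase, Rny3 (0.71) and Upp2 (0.71), a uridine phosphorylase. For Pdk4 (1.18) they were Cda (0.45), a cytidine deaminase, Tubb2a (0.47), a tubulin, and Cldn1 (0.49), a tight junction protein. For Plk3 (1.00) the nearest were Ppp1r3g (0.52), a glycogen-targeting subunit of protein phosphatase 1, Etfbkmt (0.54) and Slc7a2 (0.54), a transporter of cationic amino acids. For Txnip (0.48) they were Zbtb10 (0.16), Acss3 (0.20) and Klf10 (0.20), a zinc finger factor. Fgf21 had an own spread of 0.084, and the genes nearest to its flat profile were Ghrh (0.039), Slitrk1 (0.041) and Cldn17 (0.042).

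Other fasting and feeding genes are described by lists, leaving out the 6. Of 21 measured fasting genes under PPARA, 0 passed an adjusted p of 0.05 between genotypes by limma. Their median difference was -0.041, with 8 above and 13 below 0, beside -0.0065 over all genes. Cd36, a fatty acid transporter, differed by 0.42 (SE 0.32) and Acot2, a mitochondrial acyl-CoA thioesterase, by -0.35 (SE 0.28). Between the sets, 16 of the 21 had a difference above 0 and 5 below 0, and the share of all genes with each sign was not taken. Their median set difference was 0.24, beside 0.024 over all genes. Of the 21, 6 lay above with no overlap and 1 below, against 5.04% and 7.12% of all genes. None of them did so by over 2-fold, against 0.316% and 0.602% of all genes. The widest were Ppara itself, at 0.93, and Cpt1a, the gate of mitochondrial fatty acid oxidation, at 0.86, both with no overlap. Acot2 had a set difference of -0.72 with overlap. The 1 below was Plin2, a lipid droplet protein, at -0.40, named after its value was seen.

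Among 19 measured fasting genes under glucagon, insulin and FOXO factors, 0 passed the adjusted threshold and 14 lay above 0, with a median of 0.21. Tat, which breaks down tyrosine, was the only one with an unadjusted p below 0.05 by limma, at 0.30 (SE 0.14), against 2.7% of all genes. With the Dbp set in the model its difference was 0.27, and it was 0.0093 in Dbp-high and 0.53 in Dbp-low livers. Between the sets, 4 of the 19 lay above and 0 below with no overlap, against 5.04% and 7.12% of all genes. Lpin1 was 2.09 higher in Dbp-high livers with no overlap (9.82 to 11.2 against 8.12 to 8.49). Bcl6, a transcriptional repressor, had a set difference of -1.15 with overlap. Of the 17 measured feeding genes under SREBP1 and ChREBP, 0 passed, 13 lay below 0 and the median was -0.087. Between the sets, 0 of these 17 lay above and 1 below with no overlap, against 5.04% and 7.12% of all genes. Their median set difference was -0.024, beside 0.024 over all genes. The 1 below was Mlxipl, which encodes ChREBP, at -0.75. Acacb, an acetyl-CoA carboxylase, had a set difference of -0.93 with overlap. Of the 17 measured clock genes, 10 lay above and 4 below with no overlap between the sets, against 5.04% and 7.12% of all genes. Dbp is among the 10 by construction, since it defined the sets. Between genotypes 0 of the 17 passed.

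**Figure D4:**
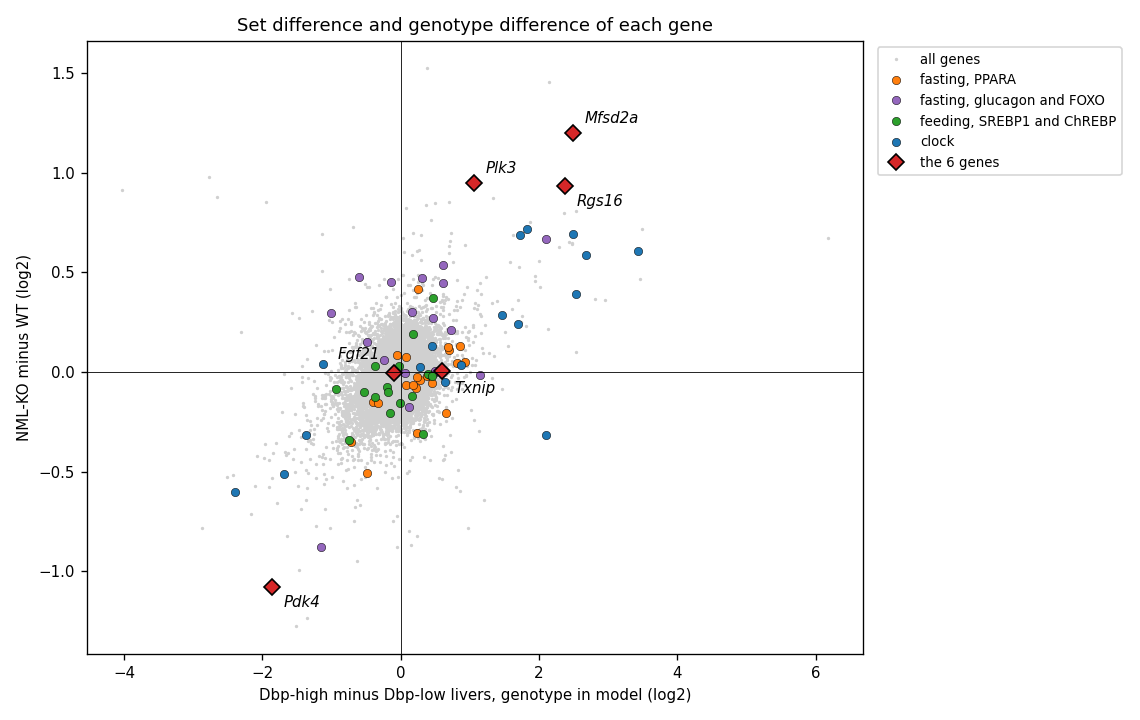
Each point is a gene, placed by its Dbp-high minus Dbp-low difference with genotype in the model (horizontal axis, log2) and its NML-KO minus WT difference over all livers (vertical axis, log2); grey points are all genes. Mfsd2a and Rgs16 lie to the right, among clock genes, at 2.49 and 2.38, Pdk4 lies to the left at -1.86, and Fgf21 and Txnip lie near 0 on the vertical axis.

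Family relatives of the 6 genes and genes of their pathways are given next, by their set and genotype differences. Pdk1, Pdk2 and Pdk3, the other kinases of pyruvate dehydrogenase, had set differences of 0.12, 0.33 and 0.042, none of them in the direction of Pdk4, and genotype differences of 0.058, 0.037 and 0.034. Of the 11 measured genes of the pyruvate dehydrogenase system besides Pdk4, 4 lay above with no overlap and 0 below. Of all genes 5.04% and 7.12% did so. Plk1, Plk2, Plk4 and Plk5 had set differences from -0.28 to -0.011. Plk2, also a stress-responsive kinase, differed between genotypes by -0.30 (SE 0.12), the sign opposite to that of Plk3, and did not pass (adjusted p = 0.999 by limma). Arrdc3, an arrestin of the Txnip family, was 1.21 higher in Dbp-high livers with overlap. Like Txnip, Arrdc3 was lower in both Dbp-low NML-KO livers than in the Dbp-low WT livers (-1.49), where 19% of all genes lacked overlap. Its relatives Arrdc1 (-0.070), Arrdc2 (-0.15) and Arrdc4 (0.10) overlapped between genotypes in those livers. Arrdc4, also induced by glucose, had a set difference of 0.51 and a genotype difference of -0.031 (SE 0.21). Klb, the co-receptor of FGF21, had a set difference of 0.66 with overlap, and its receptor partner Fgfr1 one of 0.38 with no overlap. Fgfr2, Fgfr3 and Fgfr4 had set differences of 0.14, 0.060 and -0.25, each with overlap. Of the 10 measured genes of FGF21 signalling, 1 lay above and 0 below with no overlap, against 5.04% and 7.12% of all genes. Between genotypes 0 of the 10 passed.

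Defining genes of hepatocytes were high in every liver, with a summed log2 intensity from 16.4 to 16.5. Kupffer cell markers, with all 7 measured, summed to 10.6 to 11.7 in WT and 10.4 to 11.9 in NML-KO livers, and to 10.4 to 11.3 in Dbp-high and 11.2 to 11.9 in Dbp-low livers. Cholangiocyte markers, with all 4 measured, did not overlap between the sets, at 8.01 to 8.26 in Dbp-high and 8.61 to 8.96 in Dbp-low livers. Sox9 had the widest range of these, from 6.50 to 8.38. Krt7 ran from 5.84 to 6.20, Krt19 from 5.44 to 5.79 and Epcam from 5.29 to 5.53, so the sum moved mostly with Sox9. The part of these cell types in the set differences was not tested, and in bulk tissue fewer cells of a type and less RNA per cell cannot be told apart. Rrp8, the gene of nucleomethylin, was lower in all 5 NML-KO livers (6.65 to 7.19) than in all 5 WT livers (7.65 to 7.90), with an adjusted p of 0.109 by limma.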

How the data were processed

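Total RNA of 10 mouse livers, 5 WT and 5 NML-KO, was fragmented and biotin-labelled for Affymetrix arrays, per the labels' protocols. The authors deposited 1 intensity value per probe set and array on a linear scale (28815 probe sets, 18.4 to 29834). The submitters' processing notes name genome build mm8. Background correction, normalization and summary are steps not given in the sources used here. Depth does not apply to arrays, and their number limits the precision. Titles gave genotype and replicate. Each title names a separate liver, but nothing more is stated on litters or cages. The p-values therefore set each difference against the spread between these livers, which limma moderates over all genes. Without the Dbp set in the model, that spread includes the difference between the sets.

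The deposited values were taken to log2 with no filter. Probe sets with 1 symbol in the platform annotation (21780; 1605 had several and 5430 none listed) were renamed through gene IDs to RefSeq symbols (21689 matched). The probe set with the highest mean stood for a gene. Differences came from limma 3.58.1 (lmFit, eBayes) in R 4.3.3 on all 19935 genes with Benjamini-Hochberg adjustment, tested first on simulated data. Values within a Dbp set and interactions came from a model with a mean for each of the 4 combinations of set and genotype.

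The members, lists and alternatives were chosen with earlier results of these data known. Named genes were the 6, Rrp8, Dbp, the 3 nearest profiles of each of the 6, and family relatives. From each list the 2 smallest p and 2 widest set differences were added, of which a part is printed. Sox9, Krt7, Krt19, Epcam, Plin2 and Gadd45g were named after their values were seen. Other list genes were only counted. Alternatives were other normalizations, offsets, probe set rules, priors, weights, a replicate block, the Dbp set as a term or each set alone, and each array left out.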

Additional observations from a re-analysis of the deposited data

How the results depend on the processing

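No gene of the 6 passed an adjusted p of 0.05 between genotypes under any alternative run, and over all genes the count was 0 throughout except without NML-KO 4, where it was 1, so leaving out 1 array gave 0 to 1. The number of genes with an unadjusted p below 0.05 by limma was 539, but 913 with array weights, 870 with the Dbp set as a term, 1128 in Dbp-high and 943 in Dbp-low livers alone, 231 without dim genes, 358 without NML-KO 1 and 994 without NML-KO 4. Of the 6, the number with an unadjusted p below 0.05 was 0, but 3 with array weights (Mfsd2a, Pdk4 and Plk3), 1 with the Dbp set as a term, 4 in Dbp-low livers alone, 1 without WT 1 and 2 without WT 2. Mfsd2a and Pdk4 kept their sign in every alternative run. Rgs16 turned in Dbp-low livers (-0.36) and Plk3 in Dbp-high livers (-0.33). Fgf21 turned with the Dbp set as a term (0.015), in Dbp-high livers (0.058) and when single arrays were left out (-0.028 to 0.040), and it had no value without dim genes. Txnip turned with median centring (-0.0066), array weights (-0.051), the Dbp set as a term (-0.12), in Dbp-low livers (-0.49) and when single arrays were left out (-0.28 to 0.18). Both had differences near 0 to begin with.

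With 1 array left out the genotype difference ran from 0.76 (without WT 3) to 1.75 (without WT 2) for Mfsd2a, 0.40 (without NML-KO 3) to 1.48 for Rgs16, -1.61 to -0.77 for Pdk4 and 0.69 to 1.43 for Plk3. The set difference ran from 2.20 to 2.69 for Mfsd2a, 2.08 to 2.74 for Rgs16, -2.20 to -1.47 for Pdk4, 0.57 (without WT 2) to 1.53 (without NML-KO 4) for Plk3, 0.40 to 0.79 for Txnip and -0.12 to -0.064 for Fgf21. Taken within a genotype, it moved for Mfsd2a (3.00 in WT, 1.98 in NML-KO), Rgs16 (1.56 and 3.20) and Plk3 (2.13 and -0.0050). Of the 6 genes, the number free of overlap between the sets ran from 2 to 4 with 1 array left out (an alternative chosen after seeing the data). Within Dbp-low livers, the number free of overlap between genotypes ran from 4 to 5. Leaving out an array can only narrow a range, so neither count could fall. The shares of all genes in these runs were not taken, and nothing is read from the rises. Motif matches in the 6 windows all lay before the start site, so restricting the search to those 250 bases changed none of them.

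No label pairs same-numbered WT and NML-KO livers. Numbers 1 and 2 were Dbp-high and numbers 4 and 5 Dbp-low in both genotypes, while number 3 was Dbp-low in WT and Dbp-high in NML-KO. A replicate block therefore carries part of the set difference. The correlation of deviations from the genotype means between same-numbered livers was -0.42 for number 3 and 0.26 to 0.54 for the others. Only 1 of 5 WT livers correlated best with its own number. With the replicate block, 0 genes passed by limma and 834 had an unadjusted p below 0.05, among them 2 of the 6, Mfsd2a and Pdk4, against 0 of 6 without it. In this balanced design the block leaves each difference as it was by construction (1.20 for Mfsd2a and -1.08 for Pdk4). The small number of arrays limits every value.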

Other observations

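Stress-responsive and immediate early genes form a list to which Plk3 itself is close. Of 15 measured, 5 lay above and 10 below 0 between genotypes, and 0 passed an adjusted p of 0.05 by limma. Jun, a subunit of the transcription factor AP-1, differed by -0.50 (SE 0.20), with -0.46 in each set. Fosb, another AP-1 subunit, differed by 0.20 (SE 0.089), with 0.45 in Dbp-high and -0.048 in Dbp-low livers. Its values ran only from 5.72 to 6.28, and whether they stood above background was not tested. Egr1, an immediate early transcription factor, was lower in both Dbp-low NML-KO livers than in the Dbp-low WT livers (-1.27), where Plk3 was higher, and differed by 0.10 in Dbp-high livers. Gadd45g, a stress-responsive growth arrest gene named after its values were seen, lay higher in both of those NML-KO livers (1.83), as Plk3 did, and differed by -0.10 in Dbp-high livers. Such a lack of overlap in Dbp-low livers was met by 19% of all genes.

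Genes of the ATF4 response, which can induce Fgf21, had a median genotype difference of -0.018 over 12 measured, and 0 passed. Between the sets, 1 of the 12 lay above and 1 below with no overlap, against 5.04% and 7.12% of all genes. These were Trib3, a pseudokinase, with a Dbp-high minus Dbp-low difference of 0.56, and Atf5, a transcription factor, with -0.82. Of the 17 measured genes of G protein signalling besides Rgs16, 0 passed between genotypes, and the median set difference was -0.0083. Rgs2 and Rgs5, relatives of Rgs16, had set differences of -0.59 and -0.54 with overlap, opposite in sign to Rgs16. Of the 10 measured genes of lysophosphatidylcholine and omega-3 lipid handling, 1 lay above and 1 below with no overlap between the sets. Of all genes 5.04% and 7.12% did so. The 1 above was Pnpla2, a triglyceride lipase, 0.61 higher in Dbp-high livers. Agpat3, an acyltransferase, was the only one of the 10 with an unadjusted limma p below 0.05 between genotypes (-0.12, SE 0.054), against 2.7% of all genes. Mfsd2b, the nearest relative of Mfsd2a by name, had differences of -0.028 between the sets and -0.047 between genotypes.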
